A study of Homo sapiens with 4 samples.

Results

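The tricarboxylic acid (TCA) cycle enzymes were examined through 9 nuclear genes, *CS*, *IDH2*, *IDH3A*, *OGDH*, *SUCLA2*, *SDHA*, *SDHB*, *FH* and *MDH2*, of the 60564 genes in the count files. They were taken by name, each as a catalytic or core subunit of a mitochondrial step of the cycle, by matching the Ensembl identifiers of the files to GENCODE symbols. All 9 were found and all 9 passed the filter on low counts. The rule itself uses no measured value, but the genes were chosen with earlier results of these data known.

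Elf1 cells, a line of naïve human embryonic stem cells (ESCs), were grown in 2-D or in 3-D culture and their RNA was sequenced. The 2-D grown cells adhered to Matrigel-coated plastic, and the 3-D grown cells were held for 21 days in self-assembled PEG-8-SH/PEG-8-Acr scaffolds, a gel of polyethylene glycol formed around single cells. Both conditions used the same line and the same ESC expansion medium, and each had 2 independent biological replicates, so 4 libraries were sequenced after depletion of ribosomal RNA. All cells descended from 1 line that was carried on mouse feeder cells before feeder-free culture, so any difference applies to Elf1 cells alone. In such bulk RNA, fewer cells of a type and less RNA per cell cannot be told apart.

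The TCA cycle runs in the mitochondrial matrix. Acetyl-CoA from pyruvate or fatty acids enters by joining oxaloacetate, and each turn releases carbon dioxide and hands electrons to the respiratory chain. The cycle also supplies carbon for other products: citrate leaves for lipid synthesis and histone acetylation, and α-ketoglutarate is the cofactor of the enzymes that demethylate histones and DNA, while succinate and fumarate inhibit them. In pluripotent stem cells the cycle is known for this link to chromatin as much as for ATP, and glutamine feeds it through glutamate.

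The libraries held 33833778 and 30114220 counts in 2-D and 21154409 and 18276147 in 3-D, so the 3-D values rest on fewer reads. Levels are given as CPM, read counts scaled to a common library total after TMM normalization, which lines up the bulk of genes between libraries. Differences are log2 fold changes of 3-D over 2-D grown cells from edgeR's quasi-likelihood test over 22555 tested genes, and a gene is called where its Benjamini-Hochberg adjusted p is below 0.05. The test called 7.9% of all tested genes, 4.54% as higher and 3.36% as lower in 3-D. The 6 pluripotency markers used to check the label summed to between 3687 and 3718 CPM in 2-D and between 3684 and 3804 CPM in 3-D, and none was called. Of 5 tested naive markers none was called, while *DPPA5* held at most 4 counts in any library.

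Of the 9 cycle genes 1, *OGDH*, was called between conditions, and of the other subunits *IDH3G* was called higher and *SDHC* lower. *OGDH*, the first and rate-setting subunit of α-ketoglutarate dehydrogenase, rose in 3-D grown cells by 20.2% (95% interval 13.02% to 27.9%). The other 8 genes did not pass the test, and their estimates lay between −5.66% for *SUCLA2* and 11.3% for *IDH2*. The 95% interval of *IDH2*, 0.276% to 23.6%, reached past the estimate of *OGDH*, so not passing does not show that a gene was level. The 9 genes together summed to 867 and 859 CPM in 2-D and to 885 and 912 CPM in 3-D. These sums include *OGDH*, with a mean of 122 CPM in 2-D and 146 CPM in 3-D, so they are not independent of its rise. Both 3-D sums were above both 2-D sums, although the members' share of all raw counts, without TMM, overlapped, at 0.0882% and 0.0879% in 2-D and 0.0860% and 0.0894% in 3-D.

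In counts, 1 of 9 members was called higher and 0 were called lower. Estimates were above 0 for 7 of 9, where the same held for 11272 of the 22555 tested genes. With edgeR's test 4 of 9 had an unadjusted p under 0.05, where 21.3% of all tested genes did. The libraries of the conditions did not overlap for 5 of 9, where the same held for 50.5% of all tested genes. The members' median log2 fold change was 0.05, beside −0.00014 over all tested genes. Scaling by library size alone moved both medians down together, to −0.0093 for the members and −0.06 for all tested genes, and offsets for GC content and gene length moved both up, to 0.12 and 0.07. The absolute change of 7 of 9 members was below the median absolute change of all tested genes, 0.13 on the log2 scale. For 5 of 9 the highest of the 4 libraries was 3-D replicate 2.

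**Figure D1:**
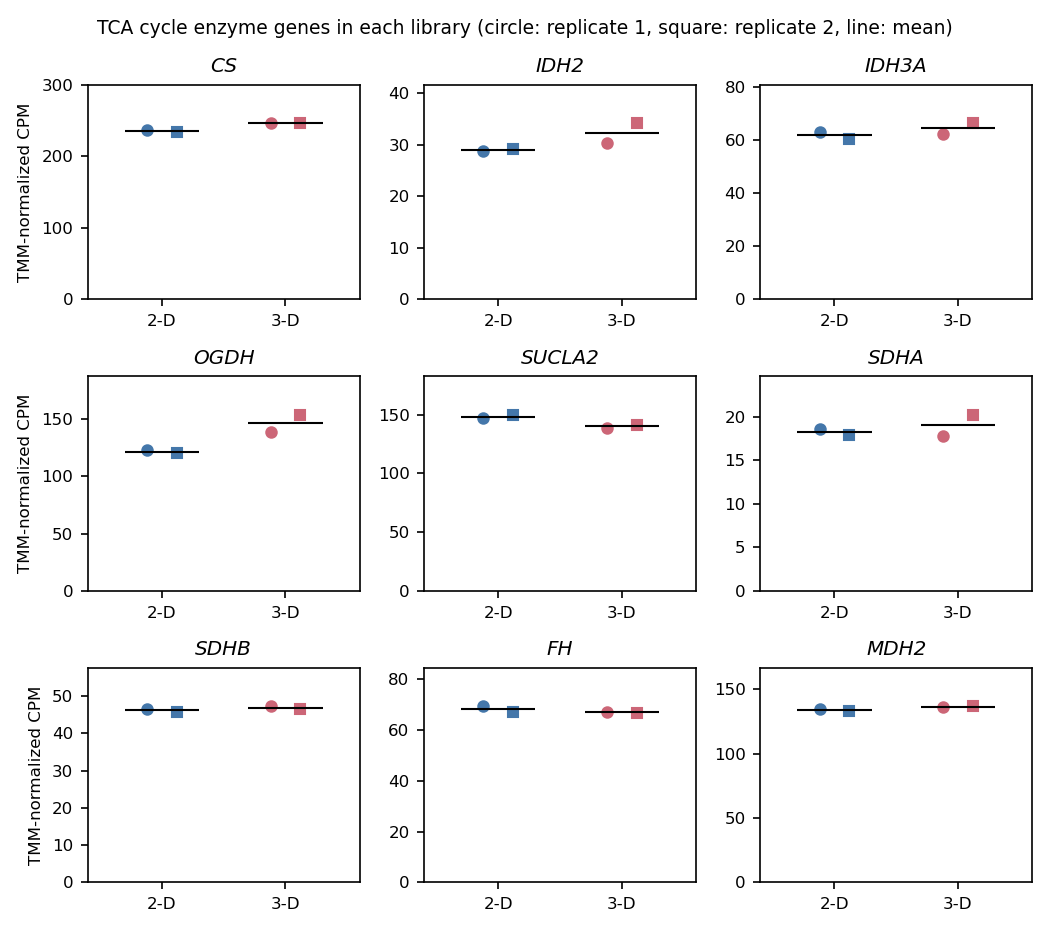
TMM-normalized CPM (vertical axes, from 0) of the 9 TCA cycle genes in each 2-D library (blue) and 3-D library (red), with replicate 1 as a circle, replicate 2 as a square and the mean as a line. *OGDH* stands at 122 and 121 CPM in 2-D and at 139 and 154 CPM in 3-D, while no gene of the other panels was called.

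The values were recomputed under 15 alternatives of normalization, filter, model and library choice. *OGDH* was called in all 15, *CS* and *IDH2* each in 2, and *IDH3A* and *SUCLA2* each in 1, while *SDHA*, *SDHB*, *FH* and *MDH2* were called in 0. For *IDH3A* the estimates ran from −0.0055 to 0.13 and for *MDH2* from −0.04 to 0.09, with part of that range shared by all genes, whose median moved with the scaling.

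**Figure D2:**
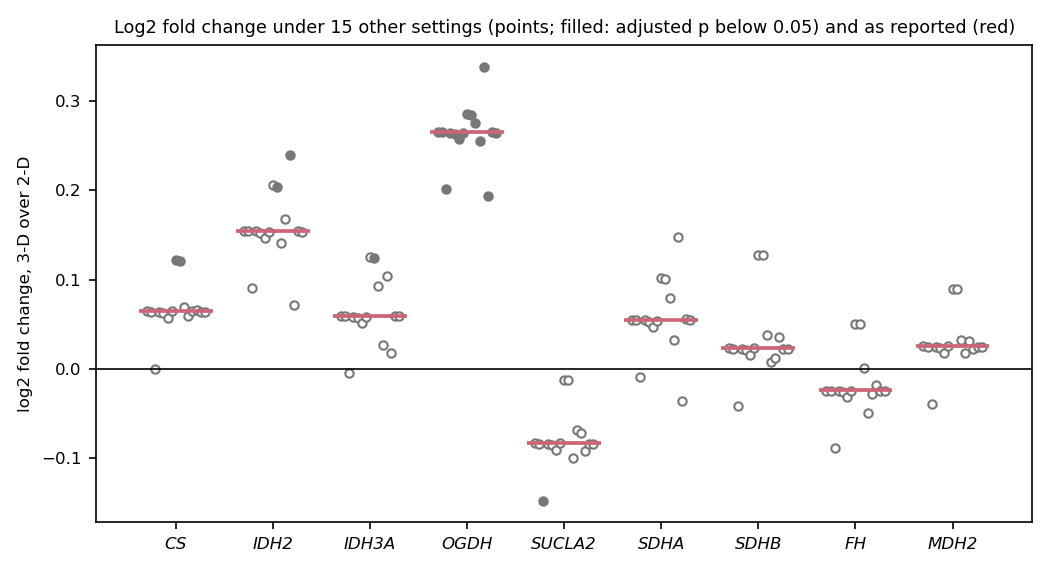
Log2 fold change of 3-D over 2-D (vertical axis) of each of the 9 genes as reported (red line) and under the 15 alternatives (points, filled at an adjusted p below 0.05). All points of *OGDH* are filled and lie between 0.19 and 0.34, while those of *CS*, *IDH3A*, *SDHA*, *SDHB*, *FH* and *MDH2* lie on both sides of 0.

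Citrate synthase, the product of *CS* (ENSG00000062485, hg38 chr12:56271699-56300391, minus strand), joins acetyl-CoA to oxaloacetate and is often used as a measure of mitochondrial mass. Its RNA stood at 236 and 235 CPM in 2-D and at 246 CPM in both 3-D libraries. The 3-D libraries were the higher ones without overlap, by a log2 fold change of 0.06 (SE 0.03), but the difference did not pass (edgeR quasi-likelihood test, adjusted p = 0.230). Its interval, 0.0353% to 9.28%, was narrow, and library size as the only scaling, which lowered the median of all genes to −0.06, put the estimate at −8.01e-05. The transcript of *CS* also has a near-complete copy at chr19:18030512-18033426, over 99.6% of its length with 97.4% identity and up to 175 identical bases in a row, so single reads of 150 bases can match both places. The pseudogene annotated there, ENSG00000273654, held only 50 and 40 counts in 2-D and 27 and 22 in 3-D, beside 8144, 7234, 5064 and 4416 for *CS* itself.

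Isocitrate is oxidized by 2 mitochondrial enzymes. The NAD-linked one has a catalytic α subunit from *IDH3A* (ENSG00000166411, chr15:78131498-78171945, plus strand) with β and γ partners, and the NADP-linked one is a homodimer from *IDH2* (ENSG00000182054, chr15:90083045-90102477, minus strand). *IDH3A* measured 63.3 and 60.4 CPM in 2-D and 62.6 and 66.4 CPM in 3-D. These libraries overlapped, and the log2 fold change of 0.06 (SE 0.04) did not pass (edgeR, adjusted p = 0.499). Of the canonical *IDH3A* transcript, 63.9% of the bases also lie in exons of *ACSBG1* on the opposite strand, and whether the counting used the strand is not given in the sources used here.

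*IDH2* measured 28.7 and 29.2 CPM in 2-D and 30.4 and 34.2 CPM in 3-D. Both 3-D libraries were above both 2-D libraries, yet they differed from each other by more than the nearer of them differed from 2-D. The log2 fold change was 0.15 (SE 0.07) with an adjusted p of 0.222 by edgeR's test. Without 3-D replicate 1 the gene was called at 0.24 (adjusted p = 0.0299), and without 3-D replicate 2 the estimate was 0.07. It was also called at 0.20 (adjusted p = 0.0242) with all 4 libraries, under the replicate block with offsets for GC content and gene length.

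The γ subunit of the NAD-linked enzyme, which regulates the α subunit, rose. *IDH3G* stood at 40.2 and 39.1 CPM in 2-D and at 46.9 and 51.0 CPM in 3-D, with no overlap. Its log2 fold change was 0.30 (SE 0.06, 95% interval 13.5% to 34.0%, edgeR adjusted p = 0.00498), and the β subunit gene *IDH3B* differed by 0.04 without passing. The ratio of *IDH3A* to *IDH3G* RNA was 1.57 and 1.55 in 2-D and 1.33 and 1.30 in 3-D, while that of *IDH3A* to *IDH3B* overlapped at 1.37, 1.33, 1.36 and 1.37. Against the γ subunit gene the α subunit gene lay lower in both 3-D libraries, and against the β subunit gene it did not.

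α-Ketoglutarate dehydrogenase, a large complex that releases carbon dioxide from α-ketoglutarate and makes succinyl-CoA, held the 1 called member. *OGDH* (ENSG00000105953, chr7:44606572-44709066, plus strand) measured 122 and 121 CPM in 2-D and 139 and 154 CPM in 3-D, from 2753 to 4216 counts a library. The 2-D libraries were nearly equal, and the 3-D libraries were spread more widely but both lay above them. The log2 fold change was 0.27 (SE 0.04, edgeR quasi-likelihood test, adjusted p = 0.00177). It was called under all 15 alternatives, with log2 fold changes from 0.19, without 3-D replicate 2, to 0.34, without 3-D replicate 1. In size it stood at percentile 75.4 of all tested genes by absolute log2 fold change, and just above the median of the called genes, 0.23. No near-identical copy and no overlapping exon of another gene was found for *OGDH*.

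None of the partners of *OGDH* passed the test. *DLST*, the succinyltransferase core, stood at 95.4 and 93.7 CPM in 2-D and at 96.5 and 97.7 CPM in 3-D (log2 fold change 0.04, edgeR adjusted p = 0.560), with both 3-D libraries the higher ones. *DLD*, the dihydrolipoamide dehydrogenase shared with the pyruvate complex, was at 135 and 134 CPM in 2-D and at 131 and 132 CPM in 3-D (−0.03, edgeR adjusted p = 0.649), with both 3-D libraries the lower ones. The ratio of *OGDH* to *DLST* was 1.28 and 1.29 in 2-D against 1.44 and 1.57 in 3-D, and that of *OGDH* to *DLD* was 0.910 and 0.898 against 1.06 and 1.16. Both ratios were higher in each 3-D library than in either 2-D library. With 2 libraries against 2, an exact permutation test of a ratio cannot go below p = 0.333, so none was run.

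The paralogue *OGDHL*, which encodes a related first subunit, measured 17.8 and 16.6 CPM in 2-D and 15.3 and 15.1 CPM in 3-D. It lay lower in both 3-D libraries and did not pass (log2 fold change −0.18, edgeR adjusted p = 0.227). The ratio of *OGDH* to *OGDHL* was 6.87 and 7.29 in 2-D and 9.09 and 10.2 in 3-D. *MRPS36*, which encodes a small adaptor of the complex, had the widest scatter, with 13.6 and 11.3 CPM in 2-D and 5.89 and 11.8 CPM in 3-D and overlapping libraries (edgeR adjusted p = 0.178).

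**Figure D3:**
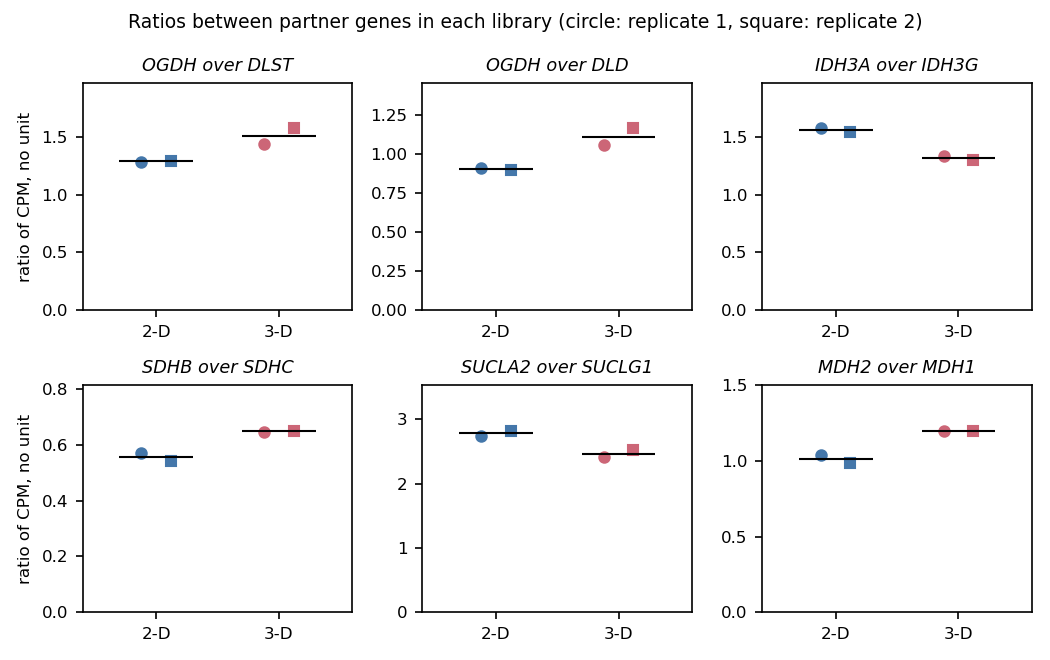
Ratio of the CPM of 2 genes (vertical axes, from 0, no unit) in each 2-D library (blue) and 3-D library (red), with replicate 1 as a circle, replicate 2 as a square and the mean as a line. *OGDH* against *DLST* goes from 1.28 and 1.29 in 2-D to 1.44 and 1.57 in 3-D. The 6 panels are a selection in which the libraries of the conditions do not overlap. The ratio of *IDH3A* to *IDH3B*, which overlapped, is not shown. Of all tested genes taken singly, 50.5% did not overlap.

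Succinate-CoA ligase turns succinyl-CoA into succinate while forming ATP or GTP, and none of its subunit genes passed the test. *SUCLA2* (ENSG00000136143, chr13:47745736-48037968, minus strand) encodes the ATP-forming β subunit and measured 147 and 149.8 CPM in 2-D and 139 and 141 CPM in 3-D. Both 3-D libraries were the lower ones, but the log2 fold change of −0.08 (SE 0.03) did not pass (edgeR, adjusted p = 0.118). With library size as the only scaling it was called lower, at −0.15 (adjusted p = 0.0103), and with offsets for GC content and gene length it was at −0.01 (adjusted p = 0.834). Its retrocopies *SUCLA2P1* on chromosome 6 and *SUCLA2P3* on chromosome 2, with 92.2% and 89.8% identity, held 0 and at most 6 counts a library. Alternate contigs of chromosome 6 also hold copies like *SUCLA2P1*, and whether reads from there went uncounted was not tested.

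The shared α subunit gene *SUCLG1* stood at 53.5 and 53.0 CPM in 2-D and at 57.6 and 55.7 CPM in 3-D (log2 fold change 0.09, edgeR adjusted p = 0.247). The ratio of *SUCLA2* to *SUCLG1* was 2.74 and 2.83 in 2-D against 2.41 and 2.53 in 3-D, without overlap. *SUCLG2*, for the GTP-forming β subunit, was at 15.7 and 16.1 CPM in 2-D and at 15.4 and 15.2 CPM in 3-D, and did not pass (edgeR adjusted p = 0.751).

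Succinate dehydrogenase is both a cycle enzyme and complex II of the respiratory chain. *SDHA* (ENSG00000073578, chr5:218303-257082, plus strand) encodes the flavoprotein that holds the active site, *SDHB* (ENSG00000117118, chr1:17018664-17054032, minus strand) the iron-sulfur subunit, and *SDHC* and *SDHD* the anchors in the inner membrane. *SDHA* measured 18.6 and 17.98 CPM in 2-D and 17.8 and 20.2 CPM in 3-D. The 3-D libraries lay on both sides of the 2-D libraries, with a log2 fold change of 0.05 (SE 0.08, edgeR adjusted p = 0.776) that became −0.04 without 3-D replicate 2. *SDHB* measured 46.7 and 45.7 CPM in 2-D and 47.3 and 46.5 CPM in 3-D, overlapping, with a log2 fold change of 0.02 (SE 0.05, edgeR adjusted p = 0.847). The intervals of −8.19% to 17.5% for *SDHA* and −5.44% to 9.13% for *SDHB* bound what these libraries could show.

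Sequence like that of *SDHA* occurs elsewhere in the genome. Its canonical transcript aligned to the pseudogenes *SDHAP1* and *SDHAP2* over 99.8% of its length with 93.0% and 92.9% identity. The longest run of identical bases was 96 in both and 145 in *SDHAP3*, so no window of 150 bases was the same, although shorter trimmed reads could be. The 90 coding bases below, in exon 4 of *SDHA*, show how alike the copies are (hg38, read 5′ to 3′ on the strand of each gene, capitals at the 6 positions where any of the 3 differ). *SDHA* lies at chr5:225472-225561 on the plus strand, *SDHAP1* at chr3:195984595-195984684 on the minus strand and *SDHAP2* at chr3:195663677-195663766 on the plus strand.
SDHA: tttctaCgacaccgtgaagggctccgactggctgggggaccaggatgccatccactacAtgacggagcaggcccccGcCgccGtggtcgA
SDHAP1: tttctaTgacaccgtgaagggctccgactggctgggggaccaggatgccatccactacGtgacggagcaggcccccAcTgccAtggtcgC
SDHAP2: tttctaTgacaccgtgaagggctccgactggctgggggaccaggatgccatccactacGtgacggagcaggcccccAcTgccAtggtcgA
Counted from 1 at the 5′ end, with the base of *SDHA* first, *SDHAP1* carries C7T, A59G, G77A, C79T, G83A and A90C, and *SDHAP2* the first 5 of these.

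Reads were counted on these copies too. *SDHAP3*, on chromosome 5, held 744 and 697 counts in 2-D and 549 and 422 in 3-D, beside 640, 554, 366 and 363 for *SDHA*. *SDHAP1* held 390, 311, 194 and 209, *SDHAP4* held 623, 553, 400 and 332, and *SDHAP2* held 0 in each library. Alternate contigs of hg38 hold copies that aligned at the same 92.9% identity as *SDHAP2*. Whether reads from there went uncounted was not tested. *SDHAP3* aligned over 99.7% of the transcript at 45.9% identity, a share that counts gaps in the alignment as differences. *SDHAP4* was taken by its symbol and was not found by the alignment. The sum of *SDHA* and the 3 counted pseudogenes was 69.6 and 68.6 CPM in 2-D and 73.4 and 74.0 CPM in 3-D, higher in both 3-D libraries, whereas *SDHA* alone overlapped. In addition, 69.4% of the canonical *SDHA* transcript lies in exons of a longer gene model on the same strand, ENSG00000286001, which held 64 and 55 counts in 2-D and 39 and 35 in 3-D. How reads that match several places or several genes were treated is not given in the sources used here, and the part of these overlaps in the *SDHA* value was not tested.

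Of the anchor subunits 1 was called. *SDHC* measured 81.8 and 84.2 CPM in 2-D and 73.3 and 71.6 CPM in 3-D, and fell by 0.20 on the log2 scale (SE 0.04, 95% interval −17.3% to −7.84%, edgeR adjusted p = 0.00514). That call was lost under 4 of 15 alternatives, among them DESeq2 (−0.20, adjusted p = 0.0878), offsets for GC content and gene length (−0.09, adjusted p = 0.119) and the fit without 2-D replicate 2 (−0.18, adjusted p = 0.0893). *SDHD* was at 50.4 and 51.6 CPM in 2-D and at 41.6 and 47.5 CPM in 3-D, with the same log2 fold change of −0.20 but a wider error and no call (SE 0.06, edgeR adjusted p = 0.0662). The ratio of *SDHB* to *SDHC* was 0.570 and 0.543 in 2-D and 0.645 and 0.650 in 3-D, and that of *SDHB* to *SDHD* was 0.927 and 0.885 against 1.14 and 0.979, both without overlap and not tested.

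Neither *SDHB* nor *SDHD* was called, the difference between their estimates was not tested, and no promoter was matched for the called anchor *SDHC*. The promoters of *SDHB* and *SDHD*, subunits of 1 complex, are shown because both hold letters known as cores for factors of mitochondrial genes. Each runs from 250 bases before to 50 bases after the start of the gene (RefSeq, GRCh38.p14, strand of the gene). *SDHB* is at chr1:17053983-17054282 on the minus strand and *SDHD* at chr11:112086623-112086922 on the plus strand. Capitals mark the NRF1 core GCATGCG, the ETS core CCGGAAG, the YY1 core AAGATGG and the estrogen-related receptor (ERR) core AAGGTCA, searched on both strands.
SDHB: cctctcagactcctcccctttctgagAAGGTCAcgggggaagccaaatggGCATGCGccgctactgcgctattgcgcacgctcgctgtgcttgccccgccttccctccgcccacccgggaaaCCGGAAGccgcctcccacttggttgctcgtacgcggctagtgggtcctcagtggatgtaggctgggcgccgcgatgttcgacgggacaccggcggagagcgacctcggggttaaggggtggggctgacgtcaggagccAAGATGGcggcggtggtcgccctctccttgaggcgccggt
SDHD: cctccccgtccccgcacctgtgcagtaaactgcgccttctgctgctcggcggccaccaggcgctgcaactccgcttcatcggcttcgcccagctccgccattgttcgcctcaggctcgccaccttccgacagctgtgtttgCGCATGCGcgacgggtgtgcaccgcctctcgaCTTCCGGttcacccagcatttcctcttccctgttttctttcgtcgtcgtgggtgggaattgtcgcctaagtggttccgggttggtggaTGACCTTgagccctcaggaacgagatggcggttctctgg
Both hold the NRF1 core, which in *SDHD* matches on either strand at overlapping positions, and both hold the ETS and ERR cores, while the YY1 core was found in *SDHB* alone of the pair.

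Of the members, 8 of 9 were matched by symbol to a promoter of this length, *OGDH* being the other. The window of *IDH2*, chr15:90100572-90100871, lies inside the gene, whose 5′ end is at 90102477. The windows of *IDH3A* and *SUCLA2* also lie inside the gene spans given here. For these genes the sequence at the outer 5′ end was not searched. The NRF1 core was in 3.91% of all 35116 promoters and, of the members, in *SDHB*, as was the YY1 core, found in 5.84% of all. The ETS core was in 10.3% of all promoters and in *MDH2* and *SDHB*, and the ERR core was in 3.92% of all and in *SDHB* and *SUCLA2*. The GC box GGGCGG was in 45% of all and in 5 members (*CS*, *FH*, *IDH3A*, *SDHB* and *SUCLA2*), the CCAAT box in 34.6% of all and in 3 (*CS*, *FH* and *SUCLA2*), and the E-box CACGTG in 7.26% of all and in 0. A match describes the letters in the window and no more.

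Fumarase, from *FH* (ENSG00000091483, chr1:241497511-241519799, minus strand), adds water to fumarate to form malate. It measured 69.3 and 66.9 CPM in 2-D and 67.2 and 66.7 CPM in 3-D. The libraries overlapped, and the log2 fold change of −0.02 (SE 0.04) did not pass (edgeR adjusted p = 0.781). Its interval ran from −7.14% to 4.07%.

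Malate dehydrogenase 2, from *MDH2* (ENSG00000146701, chr7:76048051-76067508, plus strand), closes the cycle by restoring oxaloacetate. It measured 135 and 133 CPM in 2-D and 136 and 137 CPM in 3-D, a log2 fold change of 0.03 (SE 0.03, edgeR adjusted p = 0.700). The 3-D libraries were the higher ones by a margin smaller than the gap between the 2-D libraries, with an interval of −2.61% to 6.31%. *MDH1*, its cytosolic counterpart in the malate-aspartate shuttle, fell, from 129.9 and 135 CPM in 2-D to 113 and 114 CPM in 3-D (log2 fold change −0.22, SE 0.03, edgeR adjusted p = 0.00106). The ratio of *MDH2* to *MDH1* was 1.04 and 0.988 in 2-D and 1.20 in both 3-D libraries.

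**Figure D4:**
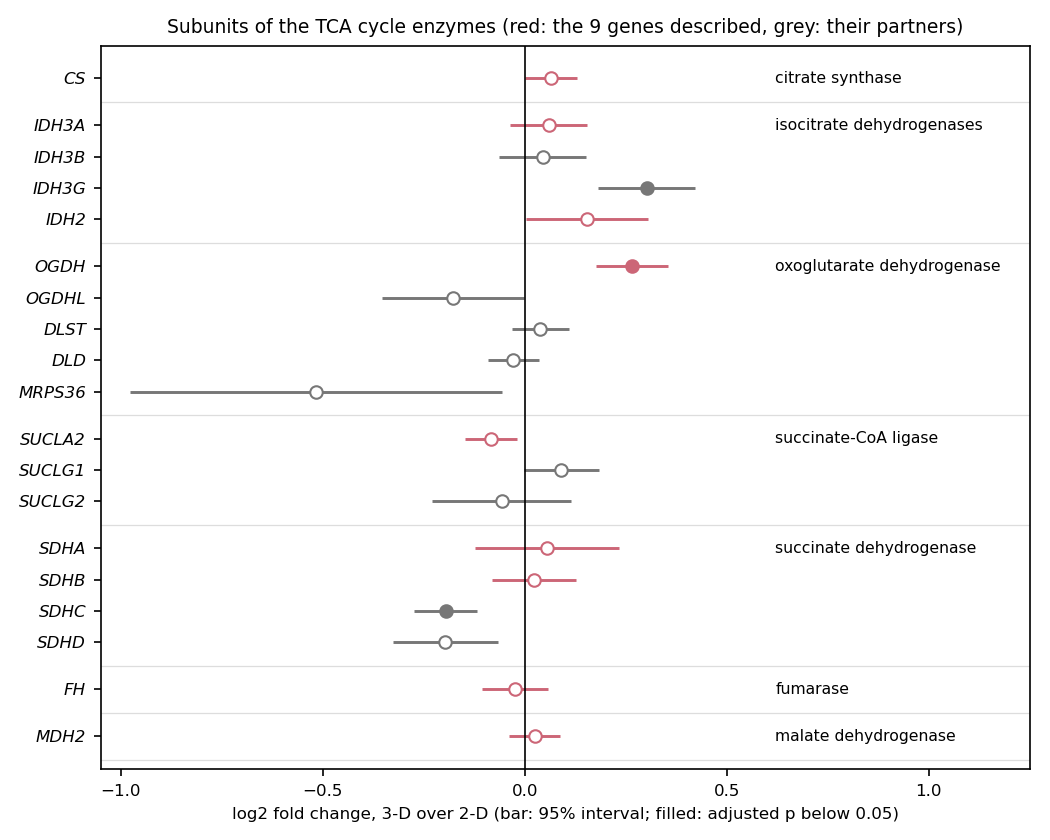
Log2 fold change of 3-D over 2-D (horizontal axis, 0 marked) with its 95% interval for the 9 genes (red) and 10 of the 11 other subunits (grey), ordered along the cycle, with filled circles at an adjusted p below 0.05. *OGDH* and *IDH3G* lie to the right with filled circles and *SDHC* lies to the left, while every other subunit shown is unfilled.

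All 11 other subunits of the cycle enzymes were tested, 5 with estimates above 0 and 6 below. Of them 1 was called higher, *IDH3G*, and 1 lower, *SDHC*, with a median log2 fold change of −0.03. Of the assembly factors of succinate dehydrogenase, 1 of 4 was called, and it was lower. *SDHAF2*, which helps attach the flavin to *SDHA* protein, measured 7.58 and 8.37 CPM in 2-D and 4.96 and 6.41 CPM in 3-D (log2 fold change −0.49, SE 0.14, edgeR adjusted p = 0.0450). That call was lost under 5 of 15 alternatives, among them DESeq2 (adjusted p = 0.317) and the fits without 2-D replicate 2 (−0.42, adjusted p = 0.198) and without 3-D replicate 1 (−0.31, adjusted p = 0.178), and 57.7% of its canonical transcript lies in exons of ENSG00000256591 on the same strand.

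Levels of the members were compared per kilobase of canonical transcript, since longer transcripts give more reads. On this scale *CS* was highest, at 80.8 ± 0.419 CPM per kb in 2-D and 84.5 ± 0.0138 in 3-D (mean ± SD, n = 2), followed by *SUCLA2* at 70.2 ± 1.06 and 66.3 ± 0.701 and *MDH2* at 61.8 ± 0.483 and 62.9 ± 0.274. *SDHB* came next at 45.5 and 46.2 CPM per kb, then *FH* at 38.02 and 37.4 and *OGDH* at 29.0 ± 0.304 and 34.9 ± 2.48. *IDH3A*, at 15.2 and 15.8 CPM per kb, and *IDH2*, at 10.9 and 12.2, were lower, and *SDHA* was lowest at 6.79 ± 0.159 and 7.07 ± 0.641.

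The order of the 9 was the same in 2-D and 3-D, and within each condition the libraries of neighbours in that order did not overlap. In 3-D the nearest pair was *FH*, at 37.5 and 37.3 CPM per kb, and *OGDH*, at 33.1 and 36.6. When the length was taken over all merged exons instead, *OGDH* moved from position 6 to 3 and *FH* from 5 to 8, while *SDHA* stayed at 9, so most positions depend on the transcript model. The place of *SDHA* also rests on how reads were counted. Of its canonical transcript, 69.4% lies in exons of ENSG00000286001 on the same strand, and *SDHAP3* held more counts than *SDHA* in each library. The part of the counting in its low level was not tested. Per kb of canonical transcript the cytosolic counterparts were higher than *IDH2* and *MDH2*, *IDH1* at 169 and 166 CPM per kb and *MDH1* at 102 and 87.7. Over merged exons *IDH1* stayed above *IDH2*. *MDH1*, at 26.5 in 2-D and 22.8 in 3-D, then lay below *MDH2*, at 36.8 and 37.5. The ratio of *IDH1* to *IDH2* in CPM was 13.7 and 13.4 in 2-D and 12.6 and 11.3 in 3-D.

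Genes on the routes into and out of the cycle were read from lists. Of 7 cytosolic and NADP-linked enzymes 1 was called, *MDH1*, with a list median of −0.03. Of the 14 genes for the entry of pyruvate 13 were tested, *PDK4* having at most 5 counts a library, and 2 were called in opposite directions. *PDHA1*, the catalytic α subunit of pyruvate dehydrogenase, rose from 191 and 189 CPM in 2-D to 216 and 213 CPM in 3-D (log2 fold change 0.17, edgeR adjusted p = 0.00326), with 28.6% of its canonical transcript in exons of *MAP3K15* on the opposite strand. *PDK3*, a kinase that switches that enzyme off, fell from 148 and 152 CPM to 132 and 133 CPM (−0.18, edgeR adjusted p = 0.00336). The list median was 0.04.

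Without 2-D replicate 2, *PDHA1* (adjusted p = 0.0568) and *PDK3* (adjusted p = 0.0629) were no longer called by edgeR. Of 6 mitochondrial carriers of cycle metabolites every estimate was below 0, from −0.26 to −0.00030, and 1 was called. Over all 22555 tested genes, 11283 estimates were below 0 and 7.9% were called. *SLC25A13*, an aspartate-glutamate carrier, fell from 117 and 115 CPM to 102 and 99.2 CPM (−0.21, edgeR adjusted p = 0.00183).

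Of 12 genes for lipoate and iron-sulfur cluster assembly, which equip *OGDH*'s complex and *SDHB*, 11 estimates were below 0 and 1 was called. Of all 22555 tested genes 11283 were below 0, and 7.9% were called. *GLRX5*, a glutaredoxin that passes on iron-sulfur clusters, fell from 78.6 and 75.1 CPM in 2-D to 65.4 and 61.6 CPM in 3-D (log2 fold change −0.27, SE 0.04, edgeR adjusted p = 0.00163). The list median was −0.09, against −0.00014 over all tested genes.

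**Figure D5:**
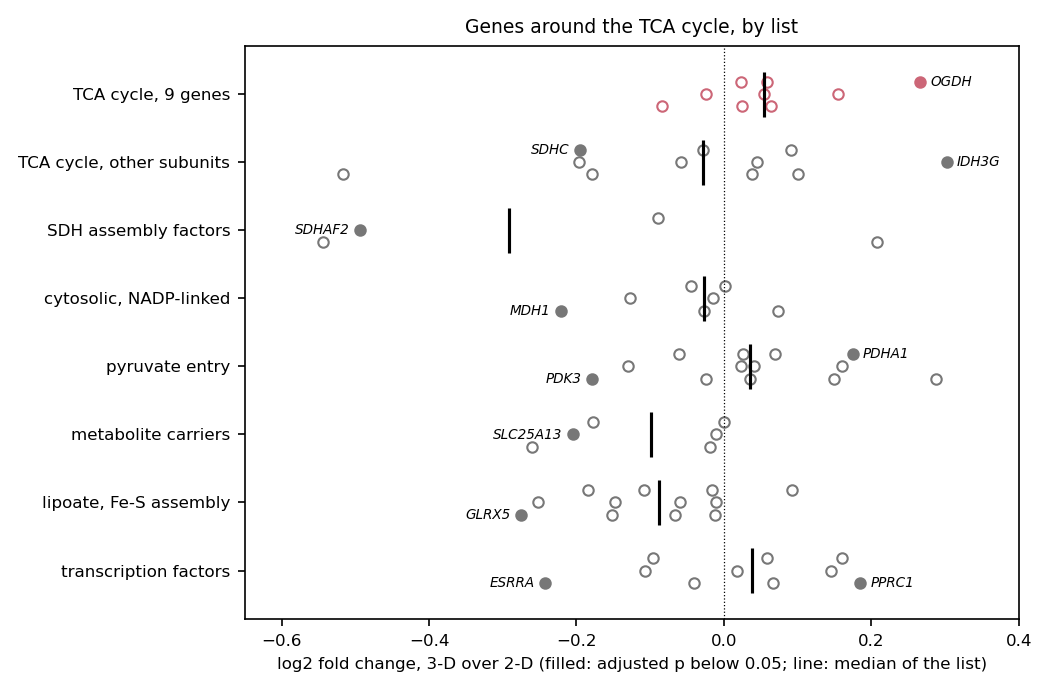
Log2 fold change of 3-D over 2-D (horizontal axis, dotted line at 0) of each tested gene in 8 lists (rows), with the list median as a black line and filled circles at an adjusted p below 0.05, labelled by name. The 9 cycle genes (red) have a median of 0.05 and 1 filled circle, *OGDH*, and no list has more than 2.

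Among the lists of markers of other cell types, only the fibroblast list held called genes. Genes of this list were read in 2-D too, *COL1A1* at a mean of 119 CPM and *THY1* at 75.5 CPM. Whether the calls reflect fibroblasts was not tested. Of 4 tested fibroblast markers 3 were called higher in 3-D beside the rise of *OGDH* and *IDH3G*, *COL1A1* by 0.29, *COL3A1* by 0.73 and *THY1* by 0.22 on the log2 scale (edgeR adjusted p = 0.000779, 0.000704 and 0.00453), while *COL1A2* differed by −0.04 without passing. The summed level of the list ran from 520 to 529 CPM in 2-D and from 539 to 585 CPM in 3-D. *DCN* held 5 and 6 counts in 2-D and 2 in both 3-D libraries, *LUM* held 3 and 10 in 2-D and 5 and 17 in 3-D. Neither of these fibroblast markers passed the filter. The part of these genes in the cycle results was not tested. None of the tested endoderm (2 of 4), mesoderm (3 of 4), neural (1 of 4) and trophoblast (1 of 4) markers was called. The endoderm factor *GATA6* held 29 and 34 counts in 2-D and 48 and 27 in 3-D, higher in 3-D per depth (log2 fold change 1.001, edgeR adjusted p = 0.0516). The trophoblast factor *HAND1*, with 21 counts in both 2-D libraries and 26 and 23 in 3-D, differed by 0.98 (edgeR adjusted p = 0.0695), and the mesoderm factor *TBXT* by 0.19 (edgeR adjusted p = 0.147), both without overlap in CPM. In addition, *NEUROD1*, *CGA* and *GCM1* were at 0 in all 4 libraries.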

How the data were processed

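RNA of 4 libraries was depleted of ribosomal RNA, sequenced with paired ends and processed by the authors with Trim Galore 0.6.3, HISAT2 2.1.0 on hg38 and featureCounts 1.6.4 on GENCODE release 30. The deposited counts are whole reads per gene, unnormalized, 1 set a library. The deposited normalized signal is these counts divided by DESeq2 size factors by the authors. The authors' columns of log2 fold changes, standard errors, Wald scores and p-values were not used here.

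Names, positions and lengths came from GENCODE release 44, which matched 60295 of 60564 identifiers. The 269 others held 0.122% of the counts. Counts were tested with edgeR 4.0.16 (R 4.3.3), with TMM, its low-count filter, the quasi-likelihood test on condition alone and Benjamini-Hochberg adjustment over 22555 genes. Replicates differed by more than sampling noise (chi-square over degrees of freedom 2.27 in 2-D, 3.92 in 3-D). The p-values and intervals rest on the spread between the 2 replicates of each condition, with each gene's variance drawn toward that of other genes. Intervals are at 95%. Copies were sought with minimap2 2.31-r1302 from the canonical transcripts. The procedure was tested on simulated counts.

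As alternatives, counts were fitted with DESeq2 1.42.0 and with the likelihood ratio test of edgeR. The others were limma-trend (limma 3.58.1) on log2 of the deposited signal plus 1, a block for the replicate number (replicate block), offsets for GC content and gene length by splines with 5 degrees of freedom, this block and these offsets together, DESeq2 size factors, library size as the sole scaling, scaling without histone, ribosomal protein and mitochondrial genes, no low-count filter, a minimum of 10 counts a library, and each library left out in turn, where the lone library of a condition is assumed to vary like the other pair. Every member, and the called genes of the lists and the partners in each member's complex, are named, apart from a few results that are not reported here. *OGDHL*, *MRPS36*, and markers below the filter are named beside them after their values were seen. Members and lists were chosen with earlier results of these data known.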

Additional observations from a re-analysis of the deposited data

How the results depend on the processing

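*OGDH* and *IDH3G* were called higher under all 15 alternatives. The members called higher went from 1 to 2 with offsets for GC content and gene length (*OGDH* and *CS*), to 4 with these offsets and the replicate block, and ranged from 1 to 2 with each library left out (2 without 3-D replicate 1). The members called lower went from 0 to 1 with library size only. The members' median log2 fold change of 0.05 became −0.0093 with library size only and 0.12 with the offsets, without or with the block, where the median of all genes went from −0.00014 to −0.06 and 0.07, and ranged from 0.022 to 0.069 with each library left out. The other cycle genes called higher went from 1 to 2 with the offsets, without or with the block. Those called lower went from 1 to 2 with library size only and with the replicate block, to 3 with no filter and 0 with the offsets, without or with the block, and with DESeq2, and ranged up to 3 with libraries left out. Over all genes, 1024 higher and 758 lower calls became 651 and 488 with the likelihood ratio test, 514 and 1879 with library size only (21.5% higher, against 57.5%), 2296 and 350 with the offsets (86.8% higher), and 463 and 270 with DESeq2. With the offsets and the block 3040 were higher. With each library left out they ranged from 560 to 1468 and from 414 to 1175. The cause of these shifts was not tested.

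Signs reversed in members that were not called, under settings that also moved the median of all genes, or with a library left out. With library size only, which lowered the median of all genes to −0.06, *CS* was at −8.01e-05, *IDH3A* at −0.0055, *SDHA* at −0.0093, *SDHB* at −0.042 and *MDH2* at −0.039. With each library left out, *SDHA* ranged from −0.037, without 3-D replicate 2, to 0.148, and *FH* from −0.0498 to 0.00088, without 2-D replicate 1. *FH* was at 0.0501 with the offsets and at 0.0498 with the block added. Deviations of equal replicate numbers correlated at −0.0079 across genes, so no shift shared by equal numbers was seen. This value cannot show whether samples of equal number were handled together. The block alone gave 1223 higher and 944 lower calls and changed no member's call. Depth limits *SDHA* most, with 363 to 640 counts a library.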

Other observations

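Of 11 transcription factors linked to mitochondrial genes 10 were tested, *ESRRB* holding at most 6 counts a library, and 2 were called in opposite directions. *PPRC1*, a coactivator related to PGC-1α, rose from 129 and 128 CPM in 2-D to 144 and 147 CPM in 3-D (log2 fold change 0.19, SE 0.03, edgeR adjusted p = 0.00228). *ESRRA*, a nuclear receptor of energy metabolism, measured 28.5 and 28.2 CPM in 2-D and 24.3 and 23.7 CPM in 3-D (−0.24, SE 0.06, edgeR adjusted p = 0.0388), a call that was lost under 6 of 15 alternatives, among them DESeq2 (adjusted p = 0.329) and the fits without 2-D replicate 1 (adjusted p = 0.182), 2-D replicate 2 (adjusted p = 0.152) or 3-D replicate 2 (adjusted p = 0.0612). The list median was 0.04.

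The genes whose pattern over the 4 libraries was most like the mean of the 9 cycle genes, of 9249 protein-coding genes with at least 10 CPM, were *DEXI*, *NOTCH2*, *MAST3*, *COPE* and *RIMS2*. Their root-mean-square differences in centred log2 CPM were between 0.0034 and 0.0041, and none was called (edgeR adjusted p from 0.380 to 0.747).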
